A study of Homo sapiens with 12 samples.

Results

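The genes described here are 10 human genes of iron handling and of defence against lipid peroxidation, FTH1, FTL, NCOA4, TFRC, TFR2, SLC11A2, SLC40A1, HAMP, IREB2 and GPX4, chosen by name from the 22963 gene names of an RNA-seq table. RNA was sequenced from 12 libraries of hepatocellular carcinoma cell lines in 4 groups of 3, to ask how raising or removing the transcription factor EGR1 changes gene expression. PLC/PRF5 cells carried the control vector or overexpressed EGR1, which was delivered with a lentiviral plasmid under the CMV promoter. MHCC97H cells were parental (wild type) or labelled EGR1 knockout, a CRISPR/Cas9 line grown from a single clone; which clone was sequenced is not given in the sources used here. Both lines were grown in DMEM with fetal bovine serum, with no added iron or iron chelator named in the labels.

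Iron enters cells bound to transferrin through the transferrin receptor, crosses the endosomal membrane through the transporter SLC11A2 (DMT1), is stored in ferritin shells of FTH1 and FTL chains, and leaves through ferroportin, the product of SLC40A1. When cytosolic iron is low, the iron regulatory proteins, of which IREB2 encodes IRP2, bind hairpins called iron-responsive elements (IREs): an IRE in a 5′ UTR holds back translation, and IREs in a 3′ UTR protect the mRNA from decay. Hepatocytes are a main iron store of the body and the source of hepcidin, the peptide encoded by HAMP that removes ferroportin from the cell surface. GPX4 is a selenoenzyme that reduces lipid hydroperoxides, whose iron-driven spread kills cells by ferroptosis.

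The IREs are shown because they are the sequence through which the iron regulatory proteins act on several of the members. They were found in GENCODE 29 transcripts on GRCh38 as an unpaired C, 5 bases, the loop CAGTGN and 5 bases that pair with the first 5, and are printed 5′ to 3′ on the strand of the gene, with the 6 bases of the loop in capitals. Of the longest transcripts of 19146 coding genes 8.45% hold such a match with at least 4 of 5 pairs. A match is therefore a description and not a proven site. Elements with another loop or fewer pairs were not searched for, so the elements given for a gene may not be all it holds. The FTH1 element lies at chr11:61967574-61967601 and the FTL element at chr19:48965336-48965363, both in the 5′ UTR. The SLC40A1 element lies at chr2:189580661-189580688, also in the 5′ UTR. The 4 TFRC elements lie in its 3′ UTR on the minus strand of chromosome 3, the first at chr3:196050979-196051006, the second at chr3:196050575-196050602, the third at chr3:196050510-196050537 and the fourth at chr3:196050463-196050490. The SLC11A2 element, at chr12:50988269-50988296 in the 3′ UTR, has 4 of the 5 pairs; FTL is on the plus strand and the others are on the minus strand.
FTH1: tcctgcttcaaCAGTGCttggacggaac
FTL: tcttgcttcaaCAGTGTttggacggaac
SLC40A1: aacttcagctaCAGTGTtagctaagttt
TFRC element 1: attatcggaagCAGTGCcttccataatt
TFRC element 2: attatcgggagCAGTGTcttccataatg
TFRC element 3: tgtatcggagaCAGTGAtctccatatgt
TFRC element 4: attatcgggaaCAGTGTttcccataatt
SLC11A2: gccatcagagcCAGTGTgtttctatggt
IREB2 itself also holds a match with 4 of 5 pairs in its 3′ UTR, and no match was found in transcripts of NCOA4, TFR2, HAMP or GPX4.

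EGR1 was measured first as a check of the labels. Its FPKM, a fragment count corrected for the length of the transcript and the size of the library, was 1.97, 1.43 and 2.03 in vector libraries and 56.3, 50.2 and 52.2 with overexpression. In MHCC97H it was 20.2, 23.1 and 21.2 in parental libraries and 35.2, 50.3 and 32.9 in those labelled knockout, so EGR1 mRNA was higher, not lower, under the knockout label (change 0.83 in log2(FPKM + 1), adjusted p = 0.00126, limma). With a correction for GC content and length the change was 0.45 (adjusted p = 0.0484). The authors report western blot and DNA sequencing as checks of their knockout clones, whereas these data hold mRNA levels only. A level over the whole gene does not show a small edit, so these libraries are named by their label throughout. Read numbers cannot be had from FPKM, so the depth behind each value is unknown. Summed FPKM of a library ranged from 376335 to 437652, and Pearson's r between replicates, across genes, was 0.993 to 0.997. Hepatocyte markers with a mean FPKM of at least 1 numbered 7 of 8 in each PLC/PRF5 group, including ALB and AFP, but 3 of 8 in parental and 4 of 8 in labelled knockout MHCC97H libraries, where ALB had a mean of 0.885 in the parental group. RNA was taken from whole cultures, so fewer cells that express a gene and less RNA per cell cannot be told apart.

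With EGR1 overexpression in PLC/PRF5 cells, the mRNA of the ferritin heavy chain rose and that of the iron regulatory protein IRP2 rose, and no member was called lower. FTH1 was 1.62-fold higher, with a change of 0.69 ± 0.13 (SE, n = 3 against 3) in log2(FPKM + 1) and an adjusted p of 0.00483 (limma). IREB2 was 1.33-fold higher (change 0.38 ± 0.10, adjusted p = 0.0214). Of the 8 members that passed the filter of a mean FPKM of at least 1, 2 were called at an adjusted p under 0.05, and 29.6% of all 11671 genes tested were called. Both were higher, beside 19.2% of all genes called higher and 10.4% called lower. The ranges of the groups did not overlap for 7 of the 8, against 47.7% of all genes. The median change of the 8 was 0.12, and that of all genes tested was 0.09.

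In the MHCC97H libraries labelled knockout, both ferritin chains and GPX4 rose against parental cells, and NCOA4, TFRC, SLC40A1 and IREB2 fell. IREB2 had the largest change of the 8 tested, at 0.53 times the parental level (change -0.88 ± 0.13, adjusted p = 5.28e-04), and GPX4 had the largest rise, 1.52-fold (change 0.61 ± 0.12, adjusted p = 0.00218). The 7 members called stand beside 66.3% of all 11577 genes, and the 7 whose groups did not overlap stand beside 71.8%. The 3 that rose and the 4 that fell compare with 34.8% and 31.5% of all genes. The median change was -0.35 for the 8 members and 0.02 for all genes.

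Changes over all genes went along with the GC content of their transcripts, in opposite directions in the lines. GC content and length together accounted for 54.3% of the variance of the changes over genes in MHCC97H and for 18.5% in PLC/PRF5. In MHCC97H the median change was -0.67 for genes under 40% GC and 0.66 for those of at least 60%, and in PLC/PRF5 it was 0.37 and -0.09. The members that rose in MHCC97H have longest transcripts of 50.1% (FTH1), 56.3% (FTL) and 65.2% GC (GPX4). Those that fell range from 38.3% (IREB2) to 43.1% (NCOA4). In PLC/PRF5 IREB2 rose along with other genes of low GC content, whereas FTH1 rose by 0.69 where the median of genes from 50% to 55% GC was 0.02.

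**Figure D1:**
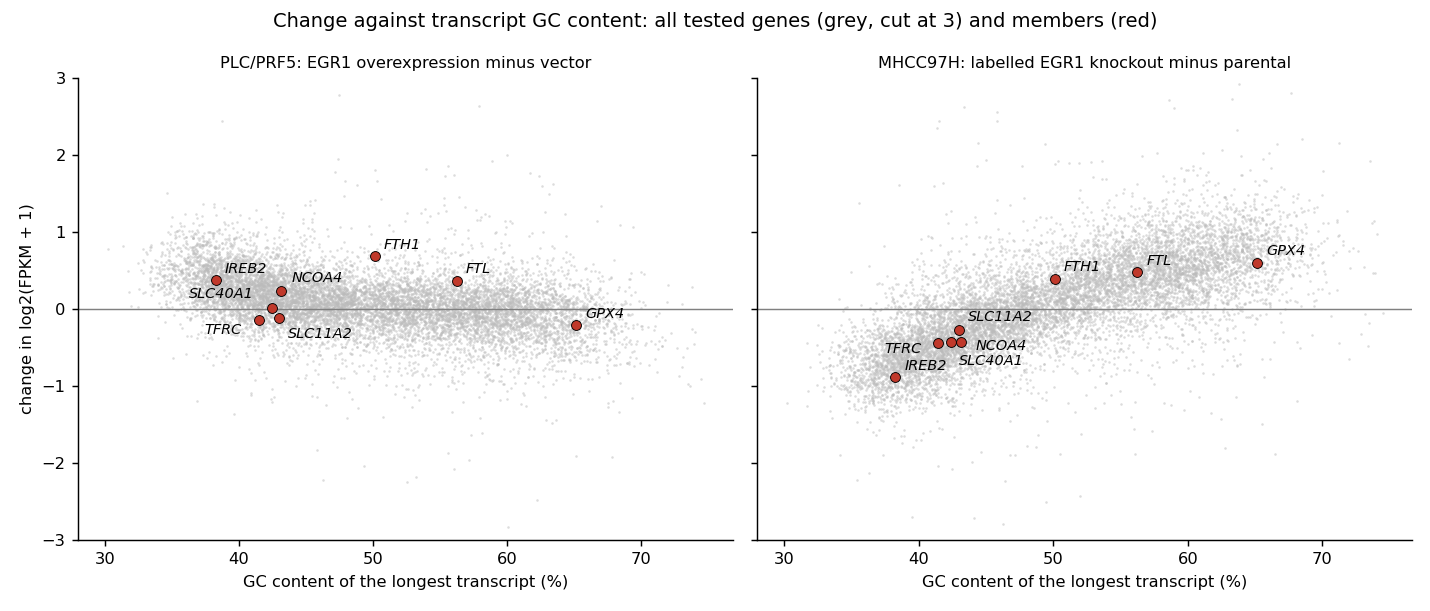
Change in log2(FPKM + 1) against the GC content of the longest transcript (%), for all tested genes with a known transcript (grey) and the 8 tested members (red), in PLC/PRF5 (left) and MHCC97H (right). In MHCC97H the grey cloud climbs with GC content and the members lie along it, from IREB2 at -0.88 to GPX4 at 0.61; in PLC/PRF5 FTH1, at 0.69, lies at the upper edge of the cloud.

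When a spline on GC content and length was removed from each library, the calls in the cell lines moved in opposite ways. In MHCC97H 1 member was called, IREB2 (change -0.21, adjusted p = 0.0429), beside 46.7% of all genes. The changes of FTL (-0.02), TFRC (0.02), SLC11A2 (0.07) and GPX4 (-0.15) then had the opposite sign to the deposited values. In PLC/PRF5 4 members were called, beside 34.7% of all genes: FTH1 (0.70, adjusted p = 4.36e-04) and FTL (0.38, adjusted p = 0.0277) rose, and TFRC (-0.36, adjusted p = 0.00436) and SLC11A2 (-0.27, adjusted p = 0.0227) fell. IREB2 lost its rise there (0.01, adjusted p = 0.926). FTH1 in PLC/PRF5 and IREB2 in MHCC97H were the calls common to the deposited and corrected values. A biological change that goes along with GC content would be taken out together with a technical one, and the part of each was not tested.

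**Figure D2:**
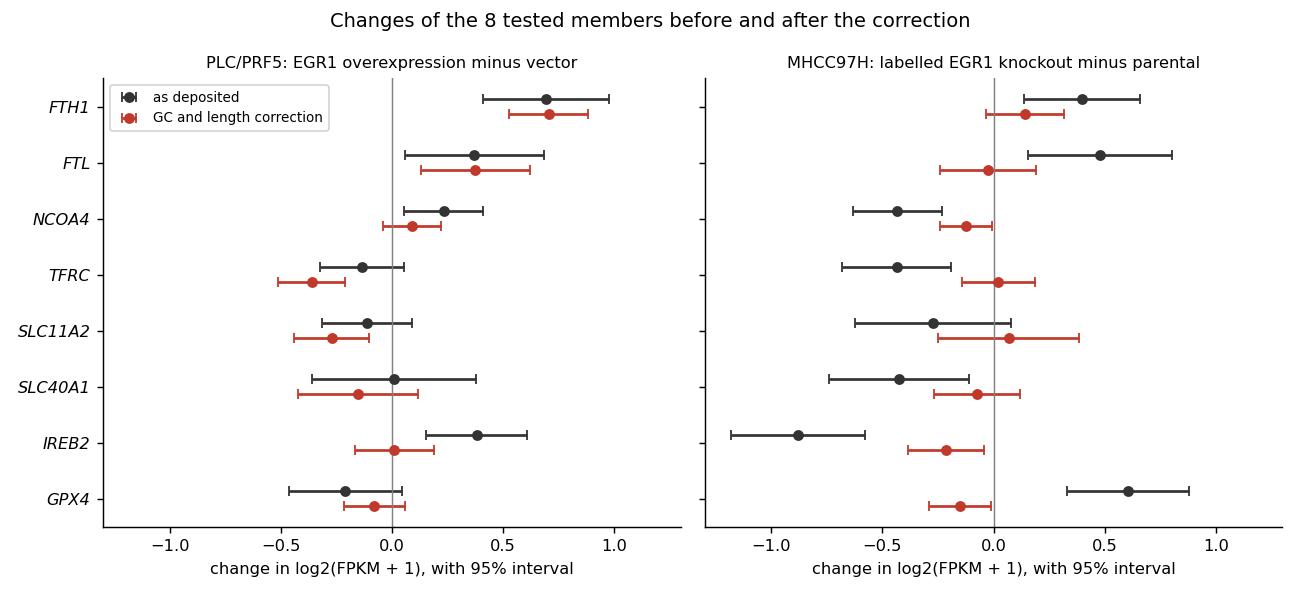
Change in log2(FPKM + 1) of the 8 tested members with its 95% interval from limma (n = 3 against 3), from the deposited values (black) and after the GC and length correction (red). In PLC/PRF5 the FTH1 interval lies above 0 in both fits (0.41 to 0.98 from the deposited values), and in MHCC97H the IREB2 change shrinks from -0.88 to -0.21 with its interval still under 0.

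FTH1 encodes the ferroxidase chain that oxidises iron as it enters ferritin. Its FPKM was 1871, 1937 and 1834 in vector libraries and 2868, 3012 and 3256 with EGR1 overexpression. The MHCC97H values were 3372, 3503 and 3608 in parental libraries and 4652, 4227 and 4952 in those labelled knockout. The 4 groups thus formed an order with no overlap, vector lowest and labelled knockout highest, and FTH1 stood among the 14 most abundant names of every library, with ranks from 5 to 14. The 95% interval of the PLC/PRF5 change was 0.41 to 0.98. In MHCC97H the rise of 1.32-fold (change 0.40 ± 0.12, adjusted p = 0.0137) was not called without parental replicate 1 (adjusted p = 0.0671), without parental replicate 2 (adjusted p = 0.0683) or with the GC and length correction (0.14, adjusted p = 0.155). Without the filter on low values FTH1 was called in neither line, with adjusted p of 0.0552 in PLC/PRF5 and 0.158 in MHCC97H.

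FTL encodes the light chain, which lacks the ferroxidase centre and helps the iron core to form. Its FPKM was 4061, 4162 and 3945 in vector libraries and 5147, 5168 and 5412 with overexpression, with every overexpressing library above every vector library. It was 10780, 11199 and 11539 in parental MHCC97H and 14643, 14526 and 17756 in the libraries labelled knockout, again without overlap. FTL was the most abundant name in all 6 MHCC97H libraries and ranked from 2 to 6 in PLC/PRF5. The 1.29-fold difference in PLC/PRF5 missed the threshold (change 0.37 ± 0.14, adjusted p = 0.0730) and passed it without EGR1 replicate 1 (adjusted p = 0.0102), scaled to the same total (adjusted p = 0.0245), with quantile normalization (adjusted p = 0.0458), with limma without trend (adjusted p = 0.0124) and with the GC and length correction, alone (adjusted p = 0.0277) or with the replicate block (adjusted p = 0.0498). The 1.40-fold rise in MHCC97H (change 0.48 ± 0.14, adjusted p = 0.0153) was not called when any 1 of the parental libraries was left out (adjusted p of 0.0854, 0.0746 and 0.0588 without parental replicate 1, 2 and 3), without the filter on low values (adjusted p = 0.365) or with the correction (adjusted p = 0.852).

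FTH1 and FTL together held 1.45% ± 0.0268 (SD, n = 3) of the summed FPKM in vector libraries, 1.99% ± 0.102 with overexpression, 3.87% ± 0.113 in parental MHCC97H and 4.80% ± 0.364 in libraries labelled knockout. The groups did not overlap. The ratio of FTL to FTH1 FPKM was 2.16 ± 0.0117 in vector libraries and 1.72 ± 0.0665 with overexpression, every overexpressing library lying under every vector library (exact permutation test, 2-sided, p = 0.1, the smallest that 3 against 3 allows). In MHCC97H it was 3.20 ± 0.000684 in parental libraries and 3.39 ± 0.222 in those labelled knockout, and the groups overlapped (exact permutation p = 0.4). In deposited FPKM the heavy chain thus had a larger share of ferritin mRNA in every overexpressing library than in any vector library. The ratio was not computed from corrected values.

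**Figure D3:**
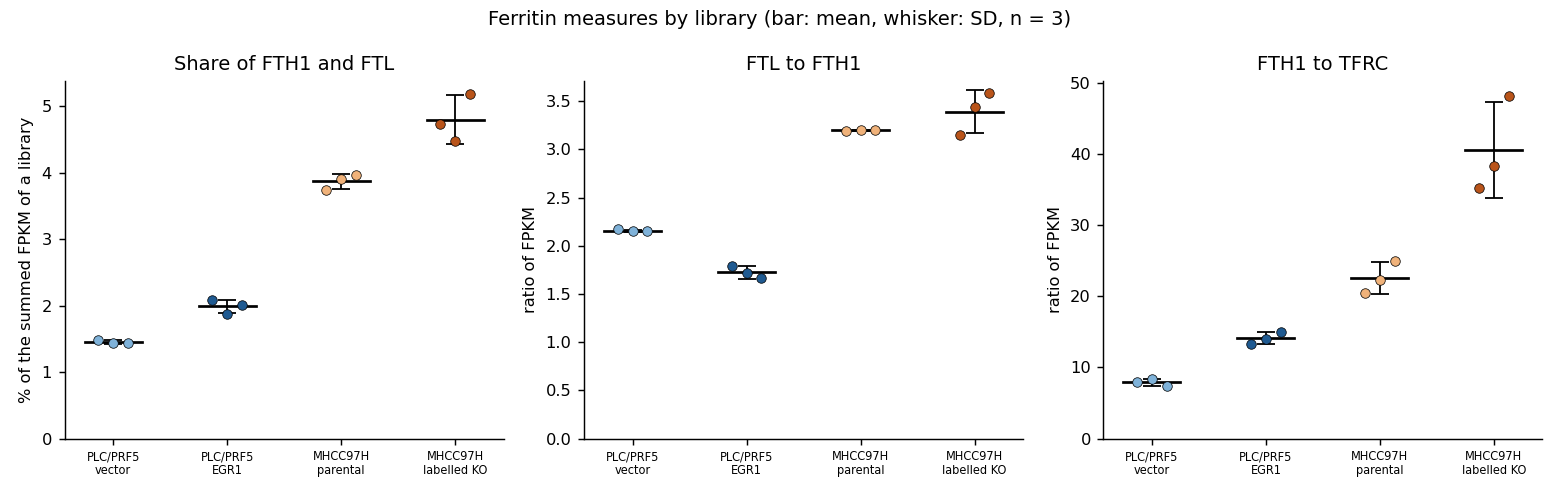
Share of FTH1 and FTL in the summed FPKM of a library (%, left), ratio of FTL to FTH1 FPKM (middle) and ratio of FTH1 to TFRC FPKM (right), with 1 point per library, the mean as a bar and the SD as a whisker (n = 3 per group). The share rises from 1.45% in vector to 4.80% in labelled knockout libraries, the FTL to FTH1 ratio is lowest with EGR1 overexpression, and the FTH1 to TFRC ratio is higher in the manipulated group of each line.

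NCOA4 encodes the receptor that carries ferritin to the lysosome, where its iron is released. Its FPKM was 30.7, 32.2 and 32.8 in vector libraries and 37.8, 36.5 and 38.5 with overexpression. Parental MHCC97H libraries had 40.7, 40.0 and 36.6, and those labelled knockout had 30.3, 28.9 and 26.8. The highest group means, those of parental and overexpressing libraries, had overlapping ranges. The overexpressing libraries lay above the vector libraries and the labelled knockout libraries under the parental ones. The PLC/PRF5 difference (0.23 ± 0.08, adjusted p = 0.0513) missed the threshold, and passed it without vector replicate 2 (adjusted p = 0.0487), with all 12 libraries in 1 fit (adjusted p = 0.0293) and without the filter on low values (adjusted p = 0.0371). The fall in MHCC97H, to 0.73 times the parental level (change -0.43 ± 0.09, adjusted p = 0.00239), was not called with the GC and length correction (-0.12, adjusted p = 0.0794).

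FTH1 overlaps BEST1, a chloride channel gene, on the opposite strand, and whether the counting used the strand is not given in the sources used here. BEST1 was listed between 0.403 and 29.8 FPKM in PLC/PRF5, between 0.834 and 28.7 in parental MHCC97H and between 68.4 and 216 in libraries labelled knockout. GENCODE 29 annotates 25 processed or other pseudogenes named for FTH1, 16 for FTL and 3 for NCOA4, and none of these names is in the table. How reads shared with these copies were assigned is not known, so the absolute levels of FTH1, FTL and NCOA4 are uncertain to that extent.

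TFRC encodes transferrin receptor 1, the main route of iron into dividing cells, and its 3′ UTR holds the 4 elements printed above. Its FPKM was 234, 231 and 247 in vector libraries, 216, 215 and 217 with overexpression, 165, 157 and 144 in parental MHCC97H and 132, 110 and 103 in libraries labelled knockout. The 4 groups did not overlap, and their order was the reverse of that of FTH1. The PLC/PRF5 difference was small (-0.14 ± 0.08, 95% interval -0.33 to 0.05, adjusted p = 0.243), and became a called fall with the GC and length correction. In MHCC97H TFRC fell to 0.74 times the parental level (change -0.44 ± 0.11, adjusted p = 0.00652), and with the correction its change was 0.02 (adjusted p = 0.820). The ratio of FTH1 to TFRC FPKM was 7.93 ± 0.490 (SD, n = 3) in vector and 14.1 ± 0.858 in overexpressing libraries, and 22.6 ± 2.30 in parental and 40.6 ± 6.80 in labelled knockout libraries. It was 1.78-fold higher in PLC/PRF5 and 1.80-fold higher in MHCC97H without overlap of the groups, at the smallest exact permutation p of 0.1 in each line. These ratios are of deposited FPKM; with the GC and length correction the changes of FTH1 and TFRC were 0.70 and -0.36 in PLC/PRF5 but 0.14 and 0.02, neither called, in MHCC97H.

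TFR2, which encodes transferrin receptor 2, an iron sensor of hepatocytes, was listed at 0 in all 12 libraries, and no comparison could be made. SLC11A2 had an FPKM of 21.7, 21.5 and 24.7 in vector libraries and 19.7, 21.4 and 21.3 with overexpression. In MHCC97H it was 30.6, 31.2 and 24.5 in parental libraries and 29.8, 19.4 and 22.4 in those labelled knockout, where the groups overlapped. Neither difference was called, at -0.11 (95% interval -0.32 to 0.09, adjusted p = 0.356) in PLC/PRF5 and -0.27 (95% interval -0.62 to 0.08, adjusted p = 0.150) in MHCC97H. In MHCC97H labelled knockout replicate 1 stood with the parental libraries, and without it the fall was called (-0.44, adjusted p = 0.0255), as it was with quantile normalization (-0.43, adjusted p = 0.0301).

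SLC40A1, the gene of the iron exporter ferroportin, had the largest difference between the lines of the 8 tested members. Its FPKM was 5.31, 9.22 and 7.67 in vector libraries and 7.74, 6.89 and 7.28 with overexpression, and the overexpressing libraries lay inside the vector range. Parental MHCC97H libraries had 62.6, 54.3 and 46.4, followed by 42.2, 45.4 and 33.3 in those labelled knockout, each of which lay under every parental library. In PLC/PRF5 the difference was 0.01 (95% interval -0.36 to 0.38, adjusted p = 0.971). Its sign turned without vector replicate 1 (-0.18) or EGR1 replicate 1 (-0.03). In MHCC97H the fall to 0.74 times the parental level (change -0.43 ± 0.14, adjusted p = 0.0232) was not called without parental replicate 1 (adjusted p = 0.0813), parental replicate 2 (adjusted p = 0.0579) or labelled knockout replicate 3 (adjusted p = 0.0765), without the filter on low values (adjusted p = 0.0646) or with the GC and length correction (-0.07, adjusted p = 0.503).

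HAMP was listed at 0 in the 6 PLC/PRF5 libraries. In MHCC97H it was 0.0903, 0.409 and 0.227 in parental libraries and 0.327, 0.767 and 0.197 in those labelled knockout, with overlapping groups. It passed the filter in no comparison, and without the filter its MHCC97H difference was 0.19 (adjusted p = 0.400). Between the control groups, also without the filter, the difference was 0.30 (adjusted p = 0.0227), and no fold is given against a group at 0. HAMP and TFR2 are expressed chiefly in the liver by hepatocytes, and in the PLC/PRF5 groups, where 7 of 8 hepatocyte markers were present, both were listed at 0. Whether a listing at 0 reflects absence or the annotation used was not tested.

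IREB2 had an FPKM of 12.3, 13.1 and 14.6 in vector libraries and 19.3, 16.3 and 17.4 with overexpression. In MHCC97H it was 27.9, 25.7 and 22.4 in parental libraries and 15.4, 13.9 and 10.9 in those labelled knockout. The groups were apart in each line, with the overexpressing libraries above vector and the labelled knockout libraries under parental, down to the range of the vector libraries. Their means differed by less than their spread (13.4 ± 2.28 and 13.3 ± 1.16, SD). The rise in PLC/PRF5 was not called without vector replicate 1 (0.33, adjusted p = 0.0663), EGR1 replicate 1 (0.32, adjusted p = 0.0531) or EGR1 replicate 3 (0.39, adjusted p = 0.0620), scaled to the same total (adjusted p = 0.0549) or with quantile normalization (adjusted p = 0.0618). The fall in MHCC97H was called without any 1 library (adjusted p from 5.91e-04 to 0.00265). With the GC and length correction and the replicate block together it was not (adjusted p = 0.0557).

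GPX4 had an FPKM of 433, 467 and 416 in vector libraries and 332, 404 and 404 with overexpression. The parental MHCC97H libraries had 291, 301 and 366, and those labelled knockout had 453, 453 and 552. Every overexpressing library lay under every vector library, and every labelled knockout library above every parental one. The PLC/PRF5 difference was not called (-0.21 ± 0.11, 95% interval -0.46 to 0.04, adjusted p = 0.184), except when libraries were scaled to the same total (-0.24, adjusted p = 0.0466), and was -0.12 without EGR1 replicate 1 and -0.08 with the GC and length correction (adjusted p = 0.332). The MHCC97H rise was called without any 1 library (adjusted p from 0.00118 to 0.0124) and turned to -0.15 (adjusted p = 0.0742) with the GC and length correction. In the order of the group means, labelled knockout, vector, overexpression and parental, the ranges overlapped between the former pair and between the latter pair. GPX4 has the highest GC content of the 10 members.

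**Figure D4:**
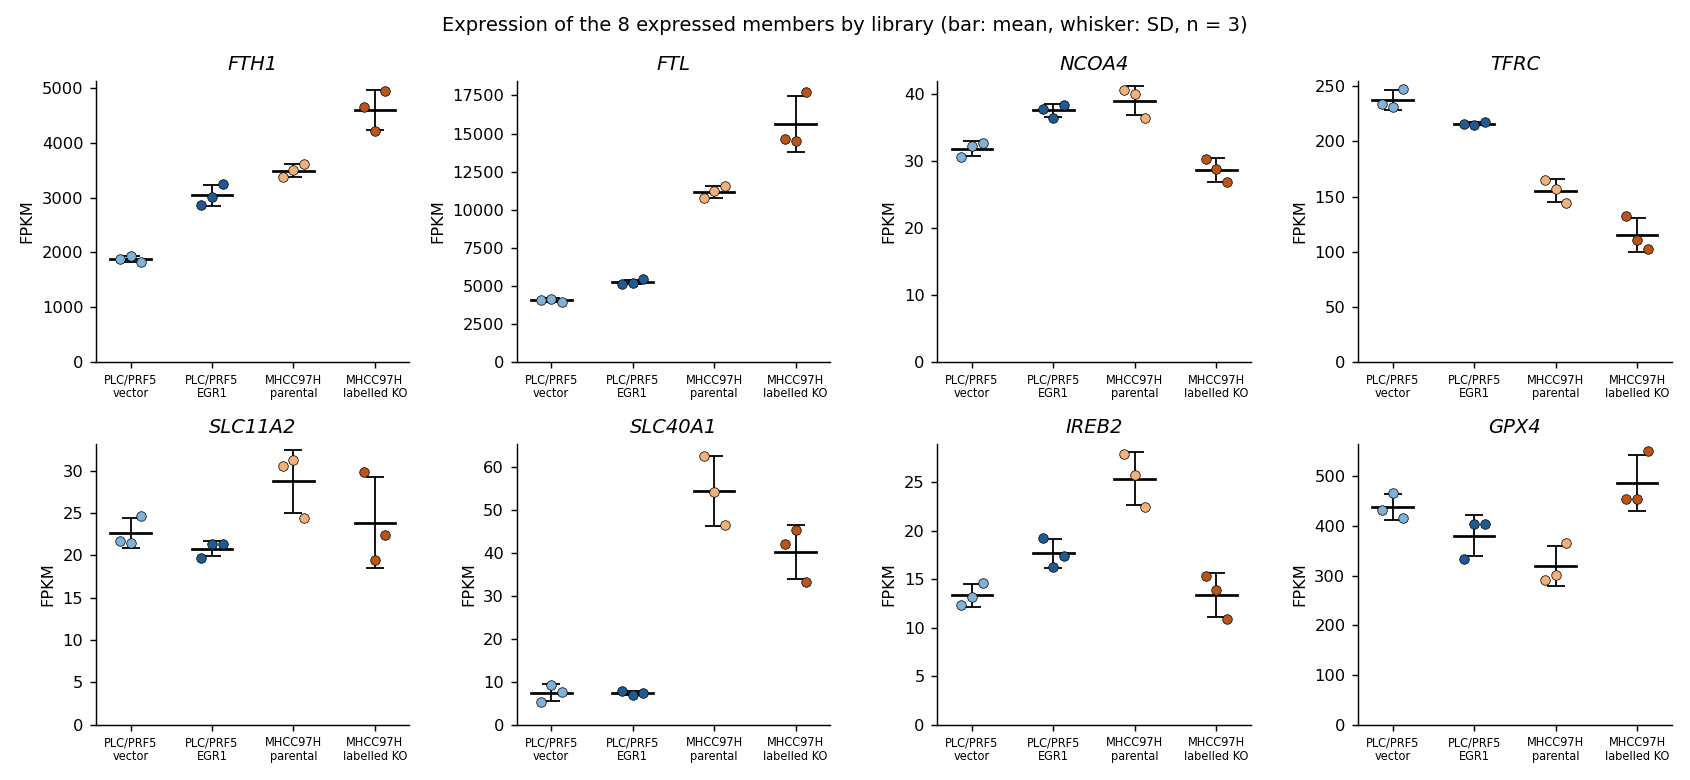
FPKM of the 8 members that passed the filter, with 1 point per library for PLC/PRF5 vector and EGR1 overexpression and for MHCC97H parental and labelled knockout libraries, the mean as a bar and the SD as a whisker (n = 3 per group; each axis starts at 0). FTH1 and FTL step up from group to group, TFRC steps down from a mean of 238 to 115, and SLC40A1 has means of 7.40 and 7.30 in PLC/PRF5 and lies between 33.3 and 62.6 in MHCC97H.

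Between the control groups, parental MHCC97H cells held more ferritin and ferroportin mRNA and less transferrin receptor mRNA than vector PLC/PRF5 cells. SLC40A1 was 7.35-fold higher (change 2.74 ± 0.18, adjusted p = 1.22e-06), FTL 2.75-fold (1.46 ± 0.07, adjusted p = 2.13e-07), and FTH1 1.86-fold (0.89 ± 0.07, adjusted p = 3.97e-06). TFRC was at 0.65 times the vector level (-0.61 ± 0.08, adjusted p = 8.70e-05). These 4 differences kept their direction and call in every alternative run, with ranges of 2.45 to 2.89 for SLC40A1, 0.84 to 2.23 for FTL, 0.65 to 1.38 for FTH1 and -1.03 to -0.40 for TFRC. IREB2 was 1.90-fold higher in MHCC97H (0.88 ± 0.11, adjusted p = 6.97e-05), and 0.29 higher with the GC and length correction.

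All 8 tested members were called between the lines, 6 higher and 2 lower in MHCC97H, beside 79.8% of all 12046 genes (38.8% higher and 40.9% lower), and 7 had groups that did not overlap, beside 81.0% of all genes. With the GC and length correction 6 of the 8 were called, beside 81.5% of all genes. NCOA4 (0.28, adjusted p = 0.00916) was not among them (0.01). SLC11A2 (0.33, adjusted p = 0.0243) was not called with the correction either, nor without parental replicate 1 (0.28), parental replicate 2 (0.27), vector replicate 1 (0.30) or vector replicate 2 (0.29). GPX4 was lower in MHCC97H in the deposited values (-0.46, adjusted p = 0.00256) and higher with the correction (0.29, adjusted p = 6.08e-04), so its order between the lines depends on this choice. Cell line and anything else that differed between the experiments cannot be told apart in this comparison.

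Of 34 other genes of iron transport, storage and regulation, 25 were tested in PLC/PRF5, where 2 rose, 3 fell and 20 were not called, beside 29.6% of all genes called. Their changes ranged from -0.48 to 1.20, with a median of 0.09 beside 0.09 for all genes. The shares for all genes in PLC/PRF5 were 29.6% called, 19.2% higher and 10.4% lower. In MHCC97H they were 66.3% called, 34.8% higher and 31.5% lower. These shares are the background for the counts of this and the other lists. With EGR1 overexpression in PLC/PRF5, HMOX1, the enzyme that frees iron from heme, rose 1.20 ± 0.09 (adjusted p = 6.98e-05). BMP6, the ligand that induces hepcidin, rose 0.62 ± 0.08 in PLC/PRF5 (adjusted p = 0.00165). The copper oxidase ceruloplasmin (CP, -0.48, adjusted p = 0.0103), transferrin (TF, -0.46, adjusted p = 0.0210) and the heme and folate transporter SLC46A1 (-0.34, adjusted p = 0.0367) fell in PLC/PRF5. In MHCC97H, 10 of 24 tested rose and 5 fell, with a median of 0.20. HMOX1 rose there too (1.41 ± 0.12, adjusted p = 3.73e-05), and its rise held with the GC and length correction in both lines (1.26 and 0.81). BMP6 rose 0.42 (0.06 with the correction, adjusted p = 0.509), the second heme oxygenase HMOX2 rose 1.17, the siderophore-binding LCN2 rose 1.00 from a mean FPKM of 10.9 to 22.9, and TF rose 0.72 from an FPKM of 1.44 to 3.02. The metalloreductases STEAP2 (-0.97) and STEAP1 (-0.90), the heme exporter FLVCR1 (-0.55) and SLC46A1 (-0.34) fell in MHCC97H. SLC46A1 lay near the floor there, with a mean FPKM of 1.27 in parental and 0.782 in labelled knockout libraries. It passed the filter of 1 only through the parental libraries, so its fall is a description only. With the correction FLVCR1 was not called (-0.16, adjusted p = 0.0782) and STEAP2 shrank to -0.22.

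Of the 30 genes of iron-sulfur cluster and heme synthesis, all were tested in both lines. In PLC/PRF5 none rose and 1 fell, beside 29.6% of all genes called. It was UROS, which closes the tetrapyrrole ring of heme (-0.52 ± 0.08, adjusted p = 0.00217). In MHCC97H 11 rose and 4 fell, with UROS again lower (-0.42 ± 0.10, adjusted p = 0.00407), and both falls held with the correction (-0.54 and -0.44). The cluster assembly factors CIAO2B (1.21), FDX2 (0.97) and GLRX5 (0.91) had the largest rises in MHCC97H, and FDX2 was not called with the correction (0.27, adjusted p = 0.256). The assembly factor ISCA1 fell there (-0.33) and was not called with the correction (0.01).

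In the list of glutathione, lipid peroxidation and ferroptosis genes, which act beside GPX4, 22 of 25 were tested in each line. With EGR1 overexpression 6 rose and 4 fell (median 0.09), beside 19.2% and 10.4% of all genes. Those that rose most were GCLM (1.37 ± 0.13) and GCLC (1.01 ± 0.09), the subunits of glutamate-cysteine ligase, SLC7A11 (1.02 ± 0.11) and SLC3A2 (0.80 ± 0.09), the chains of the cystine importer, and NFE2L2 (1.01 ± 0.13), the antioxidant transcription factor NRF2, with adjusted p from 1.65e-04 to 0.00120. PTGS2, a prostaglandin synthase (-1.19), the desaturase SCD (-0.87), LPCAT3, which places polyunsaturated chains into phospholipids (-0.86), and the glutathione-degrading CHAC1 (-0.45) fell. With the GC and length correction the rises and falls named here for PLC/PRF5 remained called. The rise of SLC7A11, from a mean FPKM of 1.76 to 4.57, shrank to 0.47, and that of GCLM to 0.99. In MHCC97H 7 rose and 10 fell (median -0.11), and NFE2L2 (-1.07), SLC7A11 (-0.98), GCLM (-0.51) and GCLC (-0.38) fell while LPCAT3 rose (0.77). Of the 8 genes called in both lines these 5 had opposite signs, while SLC3A2 rose (0.54) and PTGS2 (-0.68) and CHAC1 (-0.73) fell in MHCC97H as well. With the correction SLC3A2 (0.01, adjusted p = 0.900) and PTGS2 (0.00, adjusted p = 0.978) were not called in MHCC97H, and CHAC1 was (-1.45). CHAC1 lay near the filter of 1 there, with a mean FPKM of 2.19 in parental and 0.920 in labelled knockout libraries. With the correction NFE2L2 (-0.94) and GCLC (-0.14) remained called falls in MHCC97H, SLC7A11 was not called (-0.12), and GCLM turned to a rise (0.16, adjusted p = 0.0394).

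In MHCC97H ACSL4, which activates polyunsaturated fatty acids, had the largest fall of this list (-1.34 ± 0.15, adjusted p = 1.03e-04), to a mean FPKM of 15.2 from 40.1. The oxidoreductases POR (1.11) and AIFM2 (1.11), the latter a suppressor of ferroptosis that works without GPX4, rose. With the correction ACSL4 stayed at -0.65, AIFM2 at 0.71 and POR at 0.50, each with an adjusted p under 0.05.

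The list of glutathione peroxidases, selenoproteins and factors of selenocysteine insertion held 33 genes, not all of which encode selenoproteins. Of these, 27 were tested in PLC/PRF5 and 26 in MHCC97H. In PLC/PRF5 4 rose and 4 fell (median -0.10), beside 19.2% and 10.4% of all genes. TXNRD1, thioredoxin reductase 1 (1.12 ± 0.08, adjusted p = 8.58e-05), the deiodinase DIO2 (1.18, from an FPKM of 0.232 to 1.77) and the selenoprotein P receptor LRP8 (0.77) rose most, and SELENOM (-0.57), the elongation factor EEFSEC (-0.55) and GPX2 (-0.46) fell most. DIO2 had a vector mean under the filter of 1 and passed it only through the overexpressing libraries. It is among the 4 counted as rising, and its rise is a description only. In MHCC97H 15 rose and 5 fell, with a median of 0.58 against 0.02 for all genes and 0.21 with the GC and length correction. GPX1 (1.40 ± 0.12, adjusted p = 3.73e-05), SELENOW (1.07) and SELENOM (1.01) rose most. GPX8 (-0.73), SEPSECS (-0.57) and SELENOF (-0.46) fell most, and the latter pair was not called with the correction. GPX2, SELENOM, SELENON and EEFSEC were called in both lines, each of them a fall in PLC/PRF5 and a rise in MHCC97H. With the correction the MHCC97H rises shrank to 0.19 for GPX2, 0.27 for SELENOM and 0.23 for EEFSEC, from 0.65, 1.01 and 0.87, and that of SELENON, 0.65 from the deposited values, was not called (0.14, adjusted p = 0.0975).

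**Figure D5:**
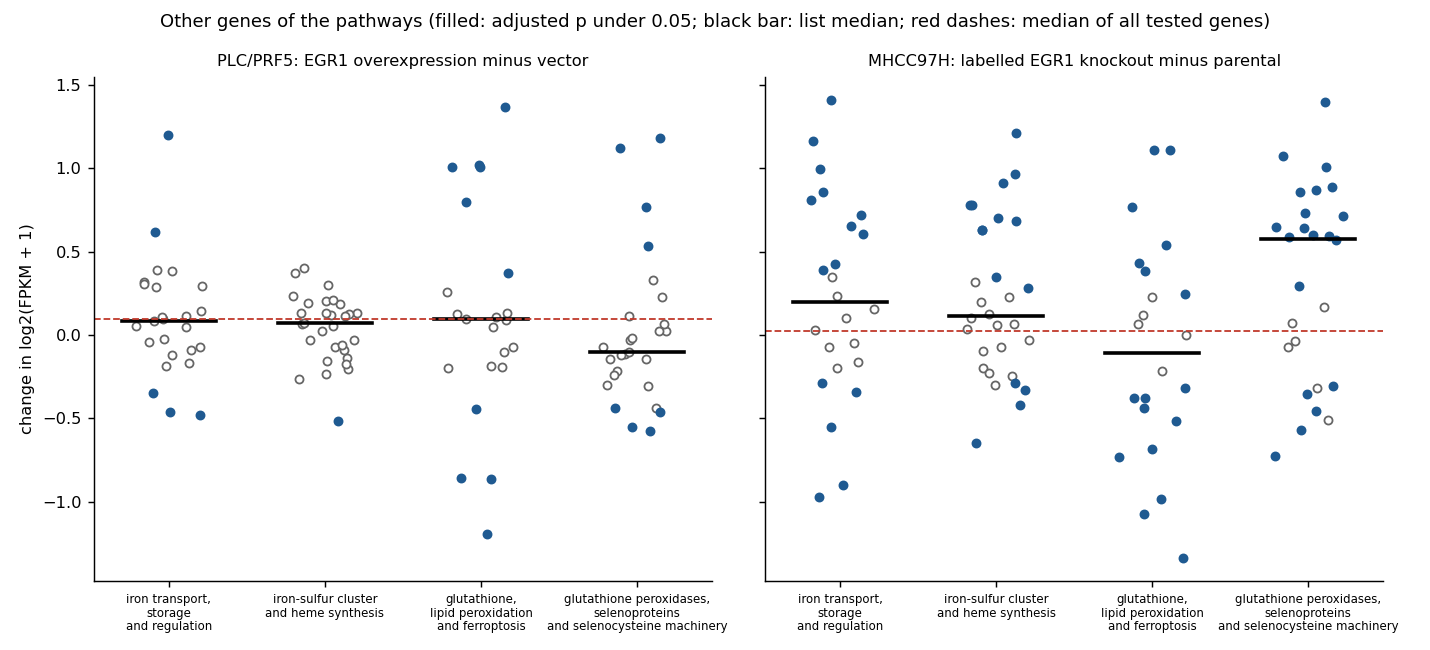
Change in log2(FPKM + 1) of the tested genes of the 4 pathway lists in PLC/PRF5 (left) and MHCC97H (right), with filled points at an adjusted p under 0.05 (limma, n = 3 against 3), black bars for list medians and a red dashed line for the median of all tested genes (0.09 and 0.02). The selenoprotein list stands highest in MHCC97H, with a median of 0.58, and HMOX1 is the highest point of the iron list in both lines (1.20 and 1.41).

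The genes whose levels over the 12 libraries were most like those of 4 members were ranked among 10369 genes by Pearson's r, as a description of 4 groups and 2 lines and not of 12 independent points. For FTH1 they were IGFBP2 (r = 0.985), TIMP1 (0.975) and ARRB1 (0.968). For FTL they were HSPB8 (0.997), LBH (0.996) and ABHD4 (0.996). For TFRC they were ERLIN2 (0.990), ENPP1 (0.990) and XRCC5 (0.988), and for GPX4 they were MRPL23 (0.984), AP2S1 (0.977) and CIB1 (0.972).

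The promoter windows of RefSeq on GRCh38.p14, 250 bases before to 50 after a start, were searched on both strands for the EGR1 motifs GCGTGGGCG and GCGGGGGCG. Of the 10 members 8 had a window. FTH1 and TFR2 had none, so their promoters were not searched. SLC11A2 held GCGTGGGCG at 125 bases before 1 of its 4 starts, in the window chr12:51026335-51026634, and GCGGGGGCG after the same start. IREB2 held GCGGGGGCG on the opposite strand at 167 bases before 1 of 2 starts, in chr15:78437966-78438265, and GPX4 held it, also on the opposite strand, at 43 bases before 1 of 3 starts, in chr19:1104400-1104699. The windows of FTL, NCOA4, TFRC, SLC40A1 and HAMP held none of these letters. Of all 27305 genes with a window 6.95% held a match, and binding of EGR1 was not measured in these data.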

How the data were processed

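The authors deposited FPKM for 12 libraries (oligo(dT)-selected mRNA, duplex-specific nuclease treatment, Illumina NovaSeq). That nuclease degrades reannealed cDNA of abundant transcripts and can lower their measured level, ferritin included. The submitters' processing notes name StringTie and hg38; aligner, annotation and strand setting are not given in the sources used here. FPKM hold no read numbers, so depth, counting error and detection limits are unknown.

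Values were used as log2(FPKM + 1). Each comparison was fitted on its 6 libraries with limma 3.58.1 (R 4.3.3, intensity trend, 2-sided, no covariates) with genes kept at a mean FPKM of 1 or more, with Benjamini-Hochberg adjustment over all genes tested and a threshold of 0.05. Fold changes on this scale understate changes of low genes. The labels call the libraries biological replicates but do not say whether these were separate cultures. The p-values therefore measure the spread between these libraries. Exact permutation tests used scipy 1.17.1. For the correction a trend on transcript GC content and log length (splines of 5 degrees of freedom) was subtracted library by library, for genes matched to GENCODE 29 (19458 of 19932 names other than assembled loci, among them all members). For each comparison the fit without and with this correction was run on simulated libraries with known changes. The check required only that most known changes be recovered where no GC trend was simulated. It set no limit on false calls or on the runs with a trend, so it does not show how well the correction works. Other settings were not simulated.

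Members and lists were chosen with earlier results of these data known. Named besides the members were EGR1, its checks, genes of the lists called in both lines, and per list and line up to 3 of the largest rises and falls among called genes whose groups did not overlap. A gene that this rule names is not reported here. BEST1 and the single values set beside a member were named after the data were seen. Alternatives were a pseudocount of 0.1, no filter, scaling to the same total, quantile normalization, limma without trend, all 12 libraries in 1 fit, the replicate number as a block, the correction (without and with the block), a threshold of 0.01, and leaving out each library.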

Additional observations from a re-analysis of the deposited data

How the results depend on the processing

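Of 384 values of the 8 tested members under alternatives, 311 kept their direction and side of the threshold, 39 were no longer called, 16 became called and 18 turned direction. The turns were SLC40A1 in PLC/PRF5 (-0.0144 scaled to the same total, -0.15 with quantile normalization, -0.15 with the GC and length correction alone or with the block, and from -0.18 to 0.16 with 1 library left out); FTL (-0.0238), TFRC (0.0216), SLC11A2 (0.0687) and GPX4 (-0.15) in MHCC97H with the correction, alone or with the block; and SLC11A2 (-0.00275) and GPX4 (0.29) between the control groups with the same correction. FTL ranked first in every MHCC97H library, so quantile normalization sets its change there to 0. The number of members called in PLC/PRF5 went from 2 to 4 with the correction, 4 with the correction and block, 1 at a threshold of 0.01, and 1 to 3 with 1 library left out (1 without vector replicate 1 or EGR1 replicate 3). In MHCC97H it went from 7 to 4 without the filter, 1 with the correction, 0 with the correction and block, 4 at 0.01, and 4 to 8 with 1 library left out (4 without parental replicate 1 or 2). Over all genes, calls in PLC/PRF5 went from 3457 to 1468 at 0.01 and to between 1919 and 4007 with 1 library left out (1919 without EGR1 replicate 2, 2208 without EGR1 replicate 3, 2246 without vector replicate 3), and in MHCC97H from 7671 to 5041 with the correction and 5038 with correction and block. For the lists in PLC/PRF5, iron transport calls went from 5 to 9 with the correction, 9 with correction and block, 2 at 0.01 and 3 to 7 with 1 library left out (3 without vector replicate 1 or EGR1 replicate 2). Iron-sulfur and heme calls went from 1 to 2 with quantile normalization, 2 with all 12 libraries in 1 fit, 6 with the correction, 4 with correction and block, and 1 to 4 with 1 library left out (4 without vector replicate 2, 3 without EGR1 replicate 1). Glutathione calls went from 10 to 16 with the correction, and selenoprotein calls from 8 to 15 with it, 15 with correction and block and 5 at 0.01. Glutathione calls in MHCC97H went from 17 to 10 at 0.01. Scaling to the same total moved the median of all genes in MHCC97H by -0.13 and the share of higher genes among calls from 52.5% to 41.6%; in PLC/PRF5 that share went from 64.8% to 46.0% with quantile normalization and 48.5% with the correction. Except where the construction of an alternative shows it, the cause was not tested.

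Same-numbered libraries did not deviate together throughout. Their r was 0.0302 to 0.467 in MHCC97H, -0.132 to 0.136 in PLC/PRF5 and -0.393 to -0.00823 between the control groups. With so few libraries per group these values cannot decide whether the replicate numbers pair the samples. With the replicate number as a block alone, 3253 genes were called in PLC/PRF5, 7987 in MHCC97H and 9249 between the control groups, and the number of members called stayed at 2, 7 and 8.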
